A study of Homo sapiens with 9 samples.

Results

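The HOX genes are 39 protein-coding homeobox genes in 4 clusters, and they were taken here by symbol (HOX, the cluster letter and the paralog number). Of the 39 genes, 37 had a row in at least 1 of the deposited tables, among 36845 genes in all. The tables list 11 HOXA genes, 9 of 10 HOXB genes, 9 HOXC genes and 8 of 9 HOXD genes. HOXB1 and HOXD1 had no row and were not analysed here. The series measured RNA by sequencing in the human line BT549, which is known as a mesenchymal, triple-negative type of breast cancer cell and carries the genotype label WT throughout. The labels form 3 groups of 3 libraries: siWFDC21P-1 and siWFDC21P-2, each an siRNA against the pseudogene transcript WFDC21P, and siNC, the control siRNA. All cells were harvested 48 h after transfection, so the model is a short knockdown in a cell line. The values are FPKM, reads scaled by exon length and library depth, so levels of different HOX genes can be set side by side.

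HOX proteins are transcription factors that give cells along the body axis their positional identity. Within each cluster the genes lie in the order of their paralog numbers, with the low numbers at the 3′ end active toward the head and the high numbers at the 5′ end active toward the tail and in the distal limb. The pattern that a cell acquires in the embryo is held through later divisions by Polycomb and Trithorax chromatin proteins, so the set of active HOX genes is widely used as a record of the site of origin of fibroblasts and other cultured cells. On hg38, HOXA lies on chromosome 7 (minus strand), HOXB on chromosome 17 from 48528526 to 48729178 (minus strand), HOXC on chromosome 12 from 53938765 to 54056030 (plus strand), and HOXD on chromosome 2 from 176092891 to 176190907 (plus strand).

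The 9 libraries did not look like a single cell population. The library names were written in 2 styles, and their gene tables differed. Style A (the 3 siWFDC21P-1 libraries and siNC replicates 1 and 2) lists 34377 genes, and style B (the 3 siWFDC21P-2 libraries and siNC replicate 3) lists 29104, with no gene that is 0 in all 4 of its libraries. Style A has 1054 genes that are 0 in all of its libraries. A gene with no row in style B has no value there. Whether such genes were left out for being 0 in all 4 libraries is not stated in the sources used here. Clustering on all genes except the HOX genes gave 3 expression sets, with r of 0.927 to 0.986 within sets and 0.659 to 0.744 between them. Set 1 held siWFDC21P-1 replicates 1 and 2 and siNC replicate 1, set 2 held siWFDC21P-1 replicate 3 and siNC replicate 2, and set 3 held the 3 siWFDC21P-2 libraries and siNC replicate 3, which are the style B libraries. VIM (vimentin) was 38.5 to 41.0 FPKM in set 1, 0.517 to 0.699 in set 2 and 162 to 310 in set 3, and EPCAM, an epithelial surface protein, was 209 to 228 FPKM in set 2 and at most 0.0731 in the other libraries. All 10 epithelial markers were at 1 FPKM or more in both set 2 libraries. Of 10 mesenchymal markers, FN1 (5.91 and 11.2 FPKM) and COL1A1 (2.61 and 1.85 FPKM) reached 1 FPKM there. In each library 4 of the 10 were at 0, CDH2 in both. This pattern goes against the label BT549, a mesenchymal line. Set 1 did not follow that label fully either. There CDH2 (at most 0.00698 FPKM), THY1 (at most 0.0173) and MMP14 (at most 0.143) were low, and KRT8 was at 93.4 to 232 FPKM. Mesenchymal markers at 1 FPKM or more in set 1 numbered 6 and 6 under knockdown against 4 under siNC. Epithelial ones numbered 3 and 3 against 4. Among blood cell and endothelial markers, CD14 (29.6 and 36.1 FPKM) and KDR (25.7 and 19.4 FPKM) were high in set 2, and PTPRC was at 0 in it. The depth recovered from the FPKM steps was 28.1 to 29.7 M reads in style A and 16.3 to 17.4 M in style B. A low level in these bulk libraries can mean fewer cells or less RNA per cell, which cannot be told apart. The sets were found from the data and are not groups of the study, so they are described library by library. Naming style, a label, was tested, and since style B is the same 4 libraries as set 3, that test cannot be told apart from one of set 3. A single control, siNC replicate 3, separates siWFDC21P-2 from its style and set.

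WFDC21P itself was at 0.0629 and 0.767 FPKM in the siWFDC21P-1 libraries of set 1, against 3.08 FPKM in the siNC library. In set 3 it was at 4.13, 3.32 and 2.12 FPKM in the siWFDC21P-2 libraries, against 6.87 FPKM in the siNC library. In set 2 it was at 0.227 FPKM (7 reads) in the library labelled siWFDC21P-1 replicate 3, against 0.129 FPKM (4 reads) in the library labelled siNC replicate 2, so no knockdown could be seen at that depth.

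A HOX gene is called on in a library when it reaches 1 FPKM. By this measure 28 of the 37 listed genes were on in at least 1 library, and 6 were on in all 9. The number on was 19 and 16 in the knockdown libraries of set 1, against 16 in the control. It was 17 in the knockdown library of set 2, against 14 in the control. It was 14, 14 and 14 in the knockdown libraries of set 3, against 15 in the control. These counts are out of 37 HOX genes with a row in the libraries of sets 1 and 2, but 25 in those of set 3. The totals were close, but the genes differed by set, as the map of levels by cluster shows.

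**Figure D1:**
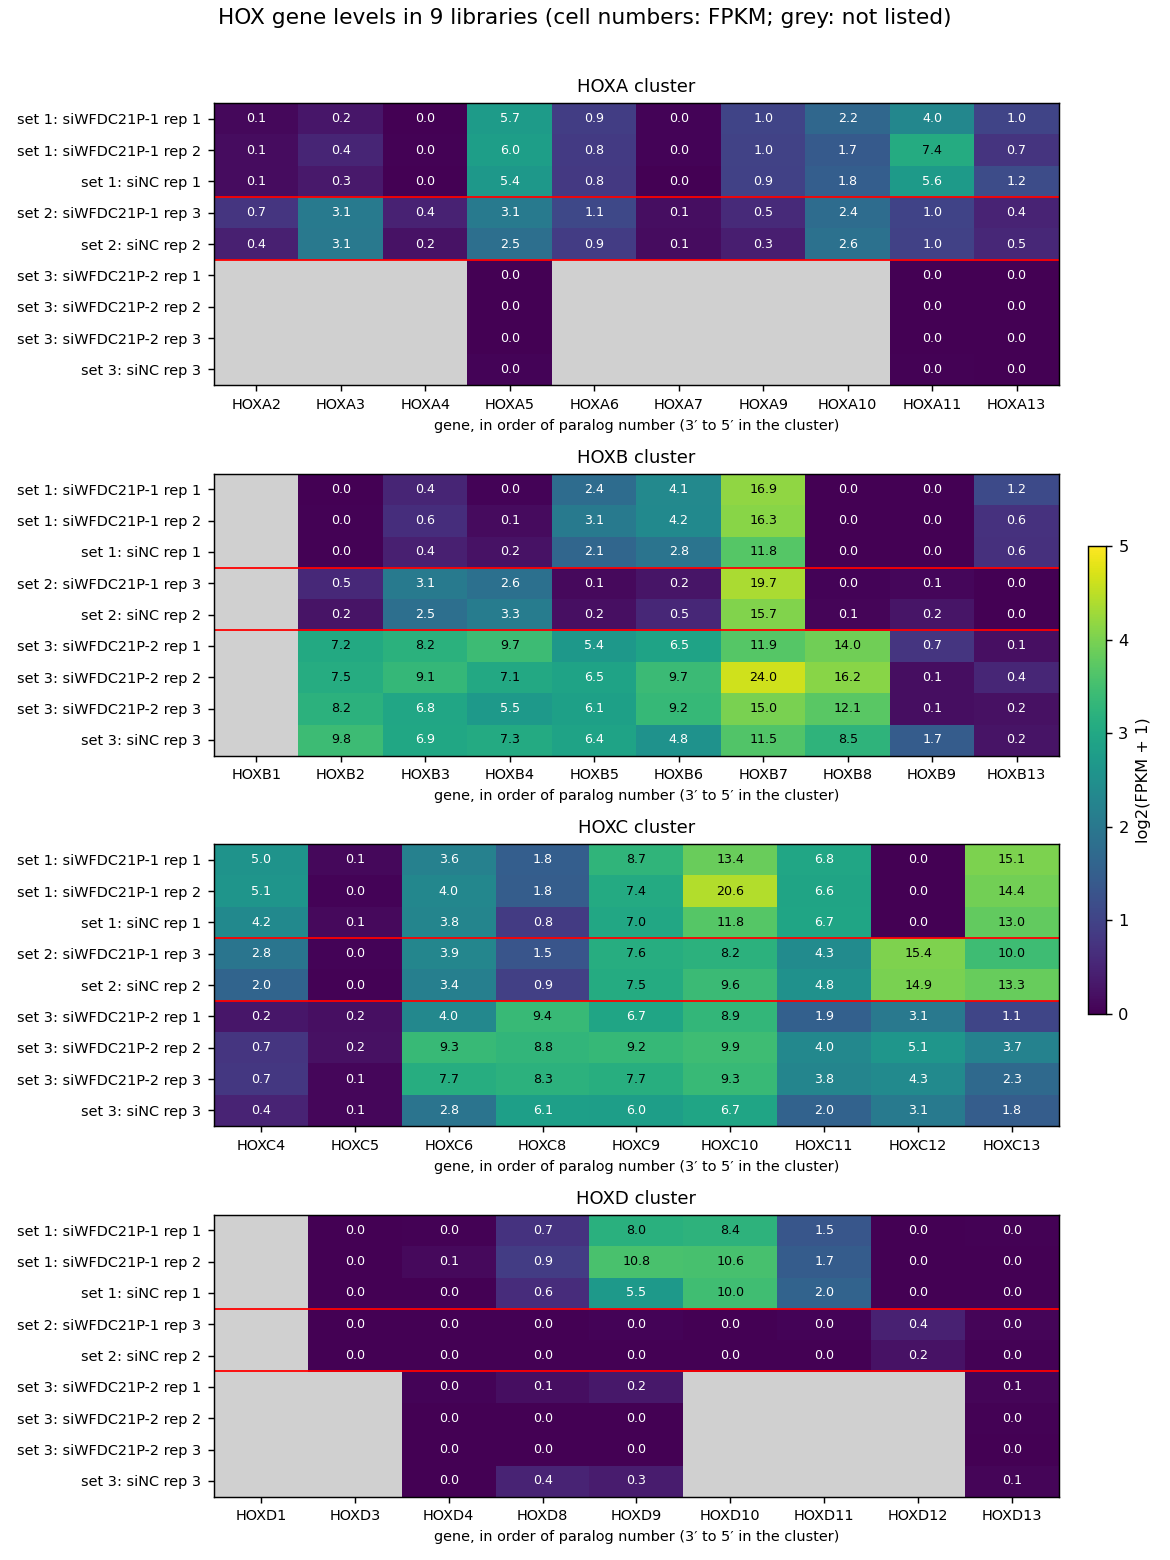
FPKM of the HOX genes (columns, in paralog order within the 4 clusters) in each library (rows, with the knockdown libraries of each set above its siNC library and red lines between sets); colour is log2(FPKM + 1), and grey marks genes with no row. HOXD9 to HOXD11 are bright in set 1 alone (HOXD10 and HOXD11 have no row in set 3), HOXB2 and HOXB8 in set 3 alone, and HOXC12 is dark in set 1 and bright in set 2.

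In the HOXA cluster, the on genes were HOXA5, HOXA10 and HOXA11 in set 1, and included HOXA3, HOXA5 and HOXA10 in set 2. None of the 3 with a row in set 3 was on there. HOXA3, which acts in the pharyngeal arches, was low in set 1 (0.233 to 0.438 FPKM) and on in set 2 (3.09 FPKM in the knockdown library, 3.06 FPKM in the control). It was thus higher in each set 2 library than in each set 1 library.

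HOXA5, which acts in lung and mammary development, was at 5.71 and 5.98 FPKM in the knockdown libraries of set 1, against 5.37 FPKM in the control. It was at 3.11 FPKM in the knockdown library of set 2, against 2.53 FPKM in the control. In set 3 it had no read in any siWFDC21P-2 library and 1 read (0.0359 FPKM) in the siNC library, where 3 reads would be 0.101 to 0.108 FPKM. HOXA11, a gene of the forearm and uterus, was at 3.99 and 7.41 FPKM in the knockdown libraries of set 1, against 5.57 FPKM in the control. It was at 1.00 FPKM in the knockdown library of set 2, against 0.965 FPKM in the control, and had 1 read in all of set 3. Set 1 thus held the higher level of the 5′ gene HOXA11 and also of HOXA5. Set 2 held the higher level of the 3′ gene HOXA3 and also of HOXA10, which lies 5′ of HOXA5. The levels did not divide cleanly between the sets by position in the cluster.

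HOXA10, known for its part in the uterus, was at 1.67 to 2.17 FPKM in set 1 and 2.39 to 2.63 FPKM in set 2. HOXA9 (0.948 to 1.03 FPKM in set 1, 0.338 to 0.517 in set 2) and HOXA6 (0.772 to 0.888 in set 1, 0.853 to 1.11 in set 2) lay at the threshold. HOXA13, the gene of the digits and urogenital end of the axis, was at 0.689 to 1.24 FPKM in set 1 and 0.406 to 0.479 FPKM in set 2. HOXA2, HOXA4 and HOXA7 never reached 1 FPKM, and the highest value among them was 0.709 FPKM (HOXA2 in siWFDC21P-1 replicate 3). Apart from HOXA5, HOXA11 and HOXA13, no HOXA gene had a row in style B. Whether the libraries kept the strand is not given in the sources used here. HOXA7 shares 62.5% of its exon bases with the antisense gene HOXA-AS3, and HOXA4 shares 47.3% with other genes. HOXA6 shares 40.1% with its neighbours and HOXA11 shares 31.1% with HOXA11-AS. Reads in these shared bases cannot be told apart.

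The summed level of the cluster was 15.4 and 18.6 FPKM in the knockdown libraries of set 1 against 16.8 FPKM in the control, and 16.1 FPKM in the knockdown library of set 2 against 16.5 FPKM in the control. It was at most 0.0746 FPKM over the 3 listed genes in set 3.

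In the HOXB cluster, set 3 had an unbroken run of on genes, HOXB2 to HOXB8. Set 1 had HOXB5, HOXB6 and HOXB7, and set 2 had HOXB3, HOXB4 and HOXB7. HOXB2, which acts in the hindbrain, was at 7.21, 7.52 and 8.25 FPKM in the siWFDC21P-2 libraries, against 9.77 FPKM in the siNC library of set 3. It was at 0.487 FPKM in the knockdown library and 0.197 FPKM in the control of set 2, and at most 0.0146 FPKM in set 1. HOXB3, which also acts in the hindbrain, was at 8.18, 9.10 and 6.77 FPKM in the siWFDC21P-2 libraries against 6.86 FPKM in the control, at 3.09 FPKM under knockdown against 2.53 FPKM under siNC in set 2, and at 0.353 to 0.579 FPKM in set 1. HOXB4, known for its role in blood stem cells, was at 9.73, 7.08 and 5.47 FPKM in the siWFDC21P-2 libraries against 7.32 FPKM in the control, at 2.60 FPKM under knockdown against 3.28 FPKM under siNC in set 2, and at 0.0368 to 0.182 FPKM in set 1. These 3 genes kept the order set 3, set 2, set 1 with no overlap between the libraries of the sets. The share of all genes in such an order was not counted, so this is a description only.

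HOXB5 and HOXB6, which mark trunk levels of the axis, had another order. HOXB5 was at 5.38, 6.47 and 6.13 FPKM in the siWFDC21P-2 libraries against 6.43 FPKM in the control, and at 2.42 and 3.15 FPKM under knockdown against 2.13 FPKM under siNC in set 1. In set 2 it was at 0.0872 FPKM in the knockdown library and 0.156 FPKM in the control. HOXB6 was at 6.51, 9.68 and 9.18 FPKM in the siWFDC21P-2 libraries against 4.85 FPKM in the control, at 4.12 and 4.21 FPKM under knockdown against 2.78 FPKM under siNC in set 1, and at 0.219 FPKM under knockdown against 0.475 FPKM under siNC in set 2. In set 2, then, HOXB3 and HOXB4 were on, HOXB5 and HOXB6 were off, and HOXB7 was on again. Exons in this stretch overlap, and 13.2% of the exon bases of HOXB3 (with HOXB4, HOXB6, HOXB-AS1 and HOXB-AS3), 17.1% of those of HOXB4 (with HOXB3, among others) and 32.9% of those of HOXB6 (with HOXB3 and HOXB-AS3) are shared with other genes.

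HOXB7, a gene known for its activity in breast cancer cells, was the HOXB gene on in every library. It was at 16.9 and 16.3 FPKM in the knockdown libraries of set 1 against 11.8 FPKM in the control, at 19.7 FPKM under knockdown against 15.7 FPKM under siNC in set 2, and at 11.9, 24.0 and 15.0 FPKM under knockdown against 11.5 FPKM under siNC in set 3. The ranges of the 3 sets overlapped. HOXB9 was at 0.713, 0.139 and 0.135 FPKM in the siWFDC21P-2 libraries, against 1.74 FPKM in the control, and at most 0.219 FPKM elsewhere. HOXB13, a prostate gene that lies apart from the rest of the cluster, was at 1.19 and 0.632 FPKM in the knockdown libraries of set 1 against 0.621 FPKM in the control, at 0 in both set 2 libraries and at 0.149 to 0.448 FPKM in set 3. The summed HOXB level was 63.8, 80.7 and 63.2 FPKM in the siWFDC21P-2 libraries against 57.2 FPKM in the control of set 3, and 17.9 to 26.3 FPKM in the 5 other libraries.

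HOXB8 (chromosome 17, 48611377 to 48614939) lies inside the outer bounds of HOXB7 and was on in set 3 alone. It was at 14.0, 16.2 and 12.1 FPKM in the siWFDC21P-2 libraries, against 8.47 FPKM in the siNC library. Set 2 had 2 reads of it (0.0347 FPKM) in the knockdown library and 3 reads (0.0517 FPKM) in the control. In set 1 no read was found in any library, where 3 reads would be 0.0492 to 0.0506 FPKM. HOXB8 is a textbook target of the microRNA miR-196a. MIR196A2, a gene that encodes it, lies in the HOXC cluster between HOXC10 and HOXC9. The mature microRNA (RefSeq, GRCh38.p14, chr12:53991762-53991783, plus strand) and the best matching window in the GENCODE v29 transcript HOXB8-201 are printed here to show that pairing. Capitals mark the seed, bases 2 to 8, and its partner in the transcript.
hsa-miR-196a-5p: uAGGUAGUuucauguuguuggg
HOXB8 transcript window: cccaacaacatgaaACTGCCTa
The window starts at base 1378 of 1823 and pairs with all 22 bases, 21 of them as Watson-Crick pairs and 1 as a G:U pair, and that G:U pair lies in the seed. The next best window of this transcript paired with 16 bases. Reads at MIR196A2, which count the hairpin and its host transcripts and not the mature microRNA, were 1, 0 and 4 in the siWFDC21P-2 libraries against 1 in the siNC library of set 3, and 3 to 10 in the 5 other libraries. These counts cover MIR196A2 alone and are too low to order the sets. The part of the microRNA in the HOXB8 level was not tested.

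**Figure D2:**
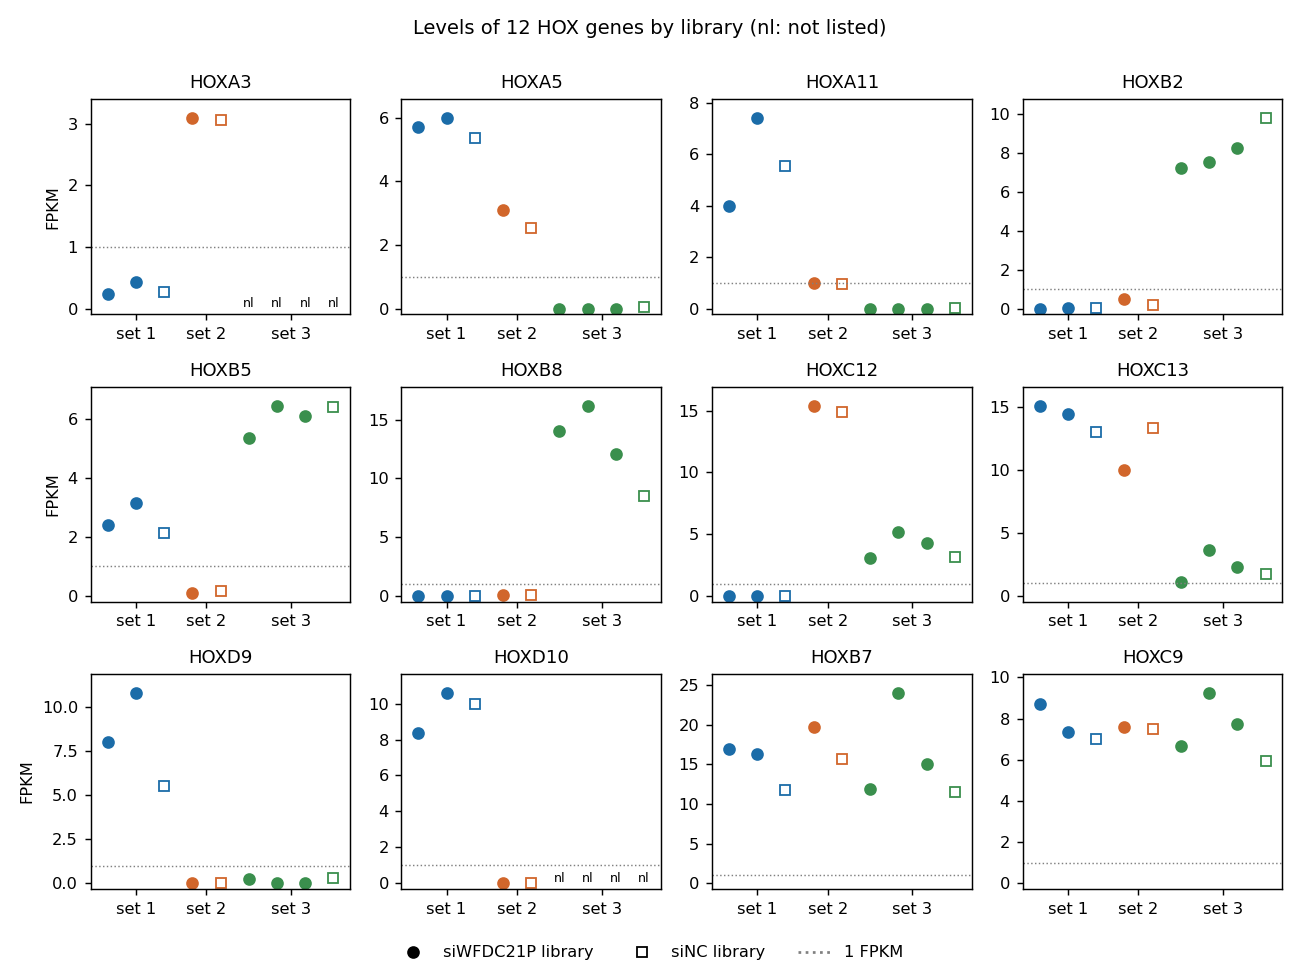
FPKM of 12 HOX genes in each library (vertical axis, linear; filled circles are siWFDC21P libraries, open squares siNC libraries, colours the expression sets, and the dotted line 1 FPKM). For most of the 12 genes the control lies with the knockdown libraries of its set, while HOXB7 (11.5 to 24.0 FPKM) and HOXC9 (5.96 to 9.25 FPKM) overlap across sets.

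The HOXC cluster was the most evenly used. HOXC6, HOXC9, HOXC10, HOXC11 and HOXC13 were on in all 9 libraries, and together with HOXB7 they are the only HOX genes of which that was true at 1 FPKM. HOXC9, a thoracic gene, was at 8.71 and 7.37 FPKM under knockdown against 7.03 FPKM under siNC in set 1, at 7.61 FPKM under knockdown against 7.49 FPKM under siNC in set 2, and at 6.68, 9.25 and 7.73 FPKM under knockdown against 5.96 FPKM under siNC in set 3. HOXC10, a lumbar gene, was at 13.4 and 20.6 FPKM under knockdown against 11.8 FPKM under siNC in set 1, at 8.23 FPKM under knockdown against 9.57 FPKM under siNC in set 2, and at 8.90, 9.95 and 9.34 FPKM under knockdown against 6.71 FPKM under siNC in set 3. HOXC6, which marks forelimb levels, was at 3.58 and 3.96 FPKM under knockdown against 3.81 FPKM under siNC in set 1, at 3.89 FPKM under knockdown against 3.44 FPKM under siNC in set 2, and at 4.03, 9.28 and 7.71 FPKM under knockdown against 2.77 FPKM under siNC in set 3. The sets overlapped in HOXC6 and HOXC9.

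The ends of the HOXC cluster differed by set. HOXC4, at the 3′ end, was at 4.97 and 5.13 FPKM under knockdown against 4.18 FPKM under siNC in set 1, at 2.83 FPKM under knockdown against 2.04 FPKM under siNC in set 2, and at 0.232, 0.702 and 0.747 FPKM under knockdown against 0.405 FPKM under siNC in set 3. HOXC8, a thoracic gene, went the other way, with 9.40, 8.79 and 8.26 FPKM in the siWFDC21P-2 libraries against 6.07 FPKM in the siNC library of set 3. It was at 1.83 and 1.77 FPKM under knockdown against 0.833 FPKM under siNC in set 1, and at 1.49 FPKM under knockdown against 0.917 FPKM under siNC in set 2. HOXC13, which controls hair and nail keratins, was at 15.1 and 14.4 FPKM under knockdown against 13.0 FPKM under siNC in set 1, at 9.96 FPKM under knockdown against 13.3 FPKM under siNC in set 2, and at 1.07, 3.65 and 2.28 FPKM under knockdown against 1.77 FPKM under siNC in set 3. HOXC11, its neighbour but for HOXC12, had the same order, with 4.30 to 6.75 FPKM in sets 1 and 2 and 1.90 to 4.01 FPKM in set 3. HOXC5 stayed at 0.166 FPKM or less, and 59.9% of its exon bases are shared with other HOXC transcripts.

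HOXC12 (chromosome 12, 53954834 to 53958956, plus strand) stood between HOXC11 and HOXC13 and did not follow either. In set 1, where both neighbours were on, it had no read in siWFDC21P-1 replicate 1, 1 read (0.0101 FPKM) in replicate 2 and no read in siNC replicate 1. In set 2 it was at 15.4 FPKM in the knockdown library and 14.9 FPKM in the control, the highest HOXC levels there. In set 3 it was at 3.07, 5.14 and 4.27 FPKM in the siWFDC21P-2 libraries, against 3.13 FPKM in the siNC library. Its exons overlap no other annotated gene, so shared reads do not enter these values. The summed HOXC level was 54.5 and 59.9 FPKM under knockdown against 47.4 FPKM under siNC in set 1, 53.7 FPKM under knockdown against 56.5 FPKM under siNC in set 2, and 35.4, 50.9 and 44.2 FPKM under knockdown against 28.9 FPKM under siNC in set 3.

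In the HOXD cluster the run HOXD9, HOXD10 and HOXD11 was on in set 1, and no HOXD gene reached 1 FPKM elsewhere. At 0.1 FPKM, 1 HOXD gene was on in each set 2 library, and in set 3 the number was 2, 0 and 0 in the siWFDC21P-2 libraries, against 2 in the siNC library. At 1 TPM (FPKM rescaled to a common sum), 1 HOXD gene was on in siWFDC21P-1 replicate 3 and 2 were on in siNC replicate 3. HOXD10 (chromosome 2, 176108790 to 176119942, plus strand), a limb and lumbar gene that is also known as a target of the breast cancer microRNA miR-10b, was at 8.36 and 10.6 FPKM in the knockdown libraries of set 1, against 10.0 FPKM in the control. Neither set 2 library had a read of it, where 3 reads would be 0.0394 to 0.0397 FPKM. MIR10B, the gene of that microRNA, lies in the same cluster and had 2 and 14 reads in the knockdown libraries of set 1, against 3 in the control, and 0 in set 2. HOXD9 was at 8.04 and 10.8 FPKM in the knockdown libraries of set 1, against 5.54 FPKM in the control. In set 2 it had 2 reads in the knockdown library and none in the control, and in set 3 it was at 0.246, 0 and 0 FPKM in the siWFDC21P-2 libraries, against 0.295 FPKM in the control. HOXD11 was at 1.54 and 1.74 FPKM in the knockdown libraries of set 1, against 2.03 FPKM in the control, and at most 0.0337 FPKM in set 2. HOXD10 and HOXD11 share 16.8% and 21.4% of their exon bases with each other, and neither has a row in style B.

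The edge of the run was steep on the 5′ side, while on the 3′ side it depended on the threshold. At 0.5 FPKM and at 1 TPM, 4 HOXD genes were on in each set 1 library, HOXD8 among them. On the 3′ side HOXD8 was at 0.658 and 0.859 FPKM in the knockdown libraries of set 1, against 0.559 FPKM in the control, at 0 in both set 2 libraries, and at 0.131, 0 and 0 FPKM under knockdown against 0.420 FPKM under siNC in set 3. HOXD3 and HOXD4 were at 0.0921 FPKM or less in every library that lists them. They share 74.1% and 80.5% of their exon bases with other genes, and reads in shared bases cannot be told apart. On the 5′ side HOXD12 was at 0 in all of set 1, and at 0.370 FPKM in the knockdown library of set 2 against 0.184 FPKM in the control. HOXD13, the gene of the digits, did not exceed 0.0548 FPKM. The summed HOXD level was 18.6 and 24.0 FPKM under knockdown against 18.1 FPKM under siNC in set 1, 0.489 FPKM under knockdown against 0.200 FPKM under siNC in set 2, and 0.468, 0.0267 and 0 FPKM under knockdown against 0.770 FPKM under siNC in set 3.

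The promoters on both sides of the 5′ edge of this run are printed because 2 of these genes were on in set 1 and their 2 neighbours were not. Each is 300 bases long, 250 before and 50 after the annotated start, on the plus strand (RefSeq, GRCh38.p14). Capitals mark 3 motifs searched on both strands, which are TGATNNAT (a composite motif bound by PBX and HOX proteins), CCAAT and TATAAA, with overlapping matches merged.
HOXD10 promoter, chr2:176116528-176116827: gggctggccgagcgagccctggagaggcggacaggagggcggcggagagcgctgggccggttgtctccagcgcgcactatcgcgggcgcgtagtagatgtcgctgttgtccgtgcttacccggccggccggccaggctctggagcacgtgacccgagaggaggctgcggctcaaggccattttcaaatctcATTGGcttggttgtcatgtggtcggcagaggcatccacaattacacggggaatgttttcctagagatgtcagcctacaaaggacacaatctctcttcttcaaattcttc
HOXD11 promoter, chr2:176107030-176107329: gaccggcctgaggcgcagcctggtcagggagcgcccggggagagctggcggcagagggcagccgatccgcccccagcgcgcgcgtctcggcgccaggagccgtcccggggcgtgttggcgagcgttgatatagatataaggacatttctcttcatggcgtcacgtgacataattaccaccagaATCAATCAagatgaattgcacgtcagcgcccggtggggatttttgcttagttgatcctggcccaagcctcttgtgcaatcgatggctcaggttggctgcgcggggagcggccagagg
HOXD12 promoter, chr2:176099545-176099844: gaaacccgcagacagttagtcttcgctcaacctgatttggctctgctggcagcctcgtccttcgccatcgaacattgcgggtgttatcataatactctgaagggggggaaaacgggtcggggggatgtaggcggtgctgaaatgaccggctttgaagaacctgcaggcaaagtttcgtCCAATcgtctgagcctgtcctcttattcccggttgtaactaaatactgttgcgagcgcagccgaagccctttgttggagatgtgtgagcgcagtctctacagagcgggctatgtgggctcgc
HOXD13 promoter, chr2:176092471-176092770: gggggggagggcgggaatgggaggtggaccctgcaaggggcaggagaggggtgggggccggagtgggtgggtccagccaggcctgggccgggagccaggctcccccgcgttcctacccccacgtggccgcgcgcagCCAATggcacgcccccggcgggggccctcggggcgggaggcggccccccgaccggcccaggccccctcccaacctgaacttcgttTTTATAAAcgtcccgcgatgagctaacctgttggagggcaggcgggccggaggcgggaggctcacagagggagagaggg
HOXD10 held 1 CCAAT and 23 CpG pairs, HOXD11 held 1 TGATNNAT and 27 CpG pairs, HOXD12 held 1 CCAAT and 19 CpG pairs, and HOXD13 held 1 CCAAT, 2 matches to TATAAA and 24 CpG pairs. Over the 35116 promoters of the same length in the table, 7.40% held TGATNNAT, 34.6% held CCAAT and 11.5% held TATAAA, and the median number of CpG pairs was 14. The 27 HOX promoters in the table, of 20 genes, had a median of 22 CpG pairs. The on and off genes were not separated by CpG number, and a match is a description of the letters only.

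**Figure D3:**
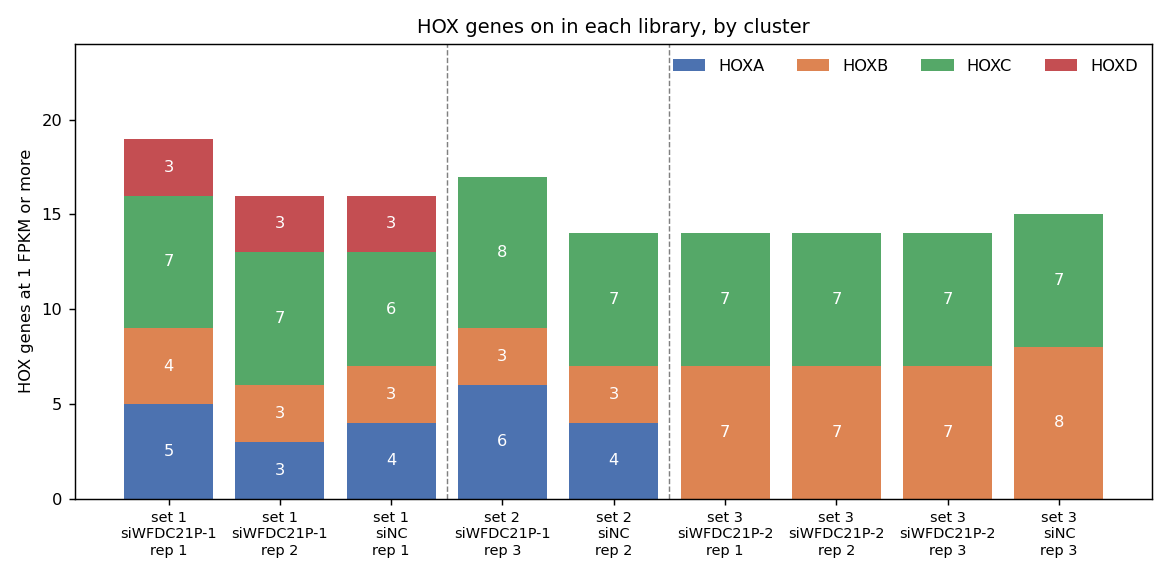
Number of HOX genes at 1 FPKM or more in each library, stacked by cluster (knockdown libraries left of the siNC library in each set). HOXD genes (red) reach 1 FPKM in set 1 alone, with 3 genes. No HOXA gene (blue) with a row reaches it in set 3. HOXB genes number 7 or 8 in set 3 and 3 or 4 elsewhere.

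Set against each other, set 1 and set 2 had 20 HOX genes that were on in all libraries of at least 1 of them. Of these, 10 were on in every library of one set and off in every library of the other, 5 in each direction. Among all 13301 genes taken the same way 16.7% switched. Between set 1 and set 3, 9 of 18 HOX genes switched, beside 13.4% of 12384 genes. Between set 2 and set 3, 6 of 16 HOX genes (37.5%) switched, beside 15.9% of 13057 genes. These shares are descriptions of the libraries and cover only genes with a row in both sets. The genes on in set 1 alone were HOXD9, HOXD10 and HOXD11, those on in set 2 alone included HOXA3, and those on in set 3 alone were HOXB2 and HOXB8. Under 1 FPKM in set 1 but on in the other sets were HOXB3 (0.353 to 0.579 FPKM in set 1), HOXB4 and HOXC12. Under 1 FPKM in set 2 but on in the other sets were HOXB5 and HOXB6 (0.219 to 0.475 FPKM for HOXB6 in set 2). HOXA5, HOXA10 and HOXC4 were on in sets 1 and 2. In set 3 HOXA5 and HOXC4 (0.232 to 0.747 FPKM for HOXC4) were under 1 FPKM. HOXA3, HOXA10, HOXD10 and HOXD11 have no row in set 3. Values near the threshold could fall on either side by counting alone. The 95% interval held 1 FPKM for 18 of 285 library values, in 10 genes, and none of the genes just named as particular to a set had such a value except HOXC4 in siWFDC21P-2 replicate 3.

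Several non-coding genes of the clusters were high in the same sets as HOX genes of their cluster. HOXB6 shares 32.9% of its exon bases with HOXB3 and HOXB-AS3. HOXA3 shares 17.9% with HOXA-AS2 and other genes. Reads in these shared bases cannot be told apart. HOTAIRM1, at the 3′ end of HOXA, was at 2.05 FPKM under knockdown against 2.81 FPKM under siNC in set 2, at 0.846 to 0.924 FPKM in set 1 and at most 0.0389 FPKM in set 3. HOXB-AS3, which overlaps HOXB5 and HOXB6, was at 4.27 and 5.96 FPKM under knockdown against 4.47 FPKM under siNC in set 1 and 5.14, 8.03 and 7.57 FPKM under knockdown against 5.04 FPKM under siNC in set 3, but at 0.0372 FPKM under knockdown against 0.0185 FPKM under siNC in set 2, where HOXB5 and HOXB6 were off. HOXA-AS2, which overlaps HOXA3, was at 2.16 FPKM under knockdown against 1.63 FPKM under siNC in set 2 and at 0.262 to 0.466 FPKM in set 1. HOXD-AS2 was at 3.70 and 5.83 FPKM under knockdown against 3.57 FPKM under siNC in set 1 and at 0 in both set 2 libraries. HOXD3, which shares exon bases with HOXD-AS2, was at most 0.0095 FPKM in set 1. HOTAIR, a HOXC transcript known for its binding to Polycomb proteins and for its link to HOXD silencing in fibroblasts, was at 14.4 and 13.5 FPKM under knockdown against 14.1 FPKM under siNC in set 1, at 15.1 FPKM under knockdown against 16.8 FPKM under siNC in set 2, and at 1.5, 6.43 and 4.56 FPKM under knockdown against 1.23 FPKM under siNC in set 3. It was called lower in style B (-2.88 ± 0.57, adjusted p = 0.0302, limma). HOTAIR was at a like level in set 1, where HOXD9 to HOXD11 were on, and in set 2, where they were off. A part of HOTAIR in the HOXD levels was not tested. HOXC-AS1 was at 3.73 to 5.18 FPKM in all libraries but siWFDC21P-2 replicates 2 and 3 (2.42 and 1.87 FPKM). Of the 18 non-coding genes in this list, 16 had a row and 6 could be tested.

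The naming style could be tested as a term of the model, since siNC libraries exist in both styles. This contrast rests on siNC replicate 3 against siNC replicates 1 and 2, with the spread taken from all 9 libraries, and it cannot be told apart from the difference between set 3 and the other sets. Of the 13014 genes tested (those averaging 1 FPKM or more), limma called 863 (6.63%) at an adjusted p of 0.05, 481 higher and 382 lower in style B. Of the 18 HOX genes tested, 5 were called. HOXB2 was higher by 3.29 ± 0.34 (difference of log2(FPKM + 1), ± SE, adjusted p = 0.0032, limma), HOXB8 by 3.21 ± 0.28 (adjusted p = 0.00143) and HOXC8 by 1.92 ± 0.25 (adjusted p = 0.00674). HOXA5 (-2.19 ± 0.47, adjusted p = 0.0389, limma) and HOXC13 (-2.35 ± 0.48, adjusted p = 0.0322) were lower in style B. For all 5 genes the 4 style B libraries did not overlap the 5 style A libraries. These genes were called on this same split, so the lack of overlap adds no test. The share of all genes without overlap was not counted. HOXB3 (1.85 ± 0.74), HOXC11 (-1.16 ± 0.43) and HOXC4 (-1.50 ± 0.47) had an unadjusted p under 0.05 in limma and did not pass the adjustment. With the called genes, 8 of 18 HOX genes were at that level, beside 3165 of all genes tested (24.3%). The median over the 18 HOX genes was -0.23, beside -0.13 over all genes tested, with 8 of them higher and 10 lower.

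HOXB2, HOXB8 and HOXC8 were called whichever library was left out, of the 8 that could be. HOXA5 was called in 2 of these 8 fits and HOXC13 in 3. The count of HOX genes called was 3 without siNC replicate 1, siWFDC21P-1 replicate 1, siWFDC21P-1 replicate 2 or siWFDC21P-2 replicate 3, and HOXB2 had an adjusted p of 0.0525 by limma-voom on recovered reads. The count over all genes was 343 to 480 without any of these 4 libraries or without siNC replicate 2 or siWFDC21P-2 replicate 2. With both set 2 libraries left out, a choice made after seeing the data, the contrast is siNC replicate 3 against siNC replicate 1, with 1 library on each side and the spread taken from the knockdown libraries. Then 12 HOX genes were called, 7 higher and 5 lower, beside 2984 of all genes (22.9%), and the added genes were HOXB3, HOXB4, HOXB5 and HOXC12 on the higher side and HOXA11, HOXC4 and HOXD9 on the lower. HOXC12, with 1 read in all of set 1 and its highest levels in set 2, then had a log2 fold change of 2.05 ± 0.32, and 0.05 ± 1.98 with all libraries.

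**Figure D4:**
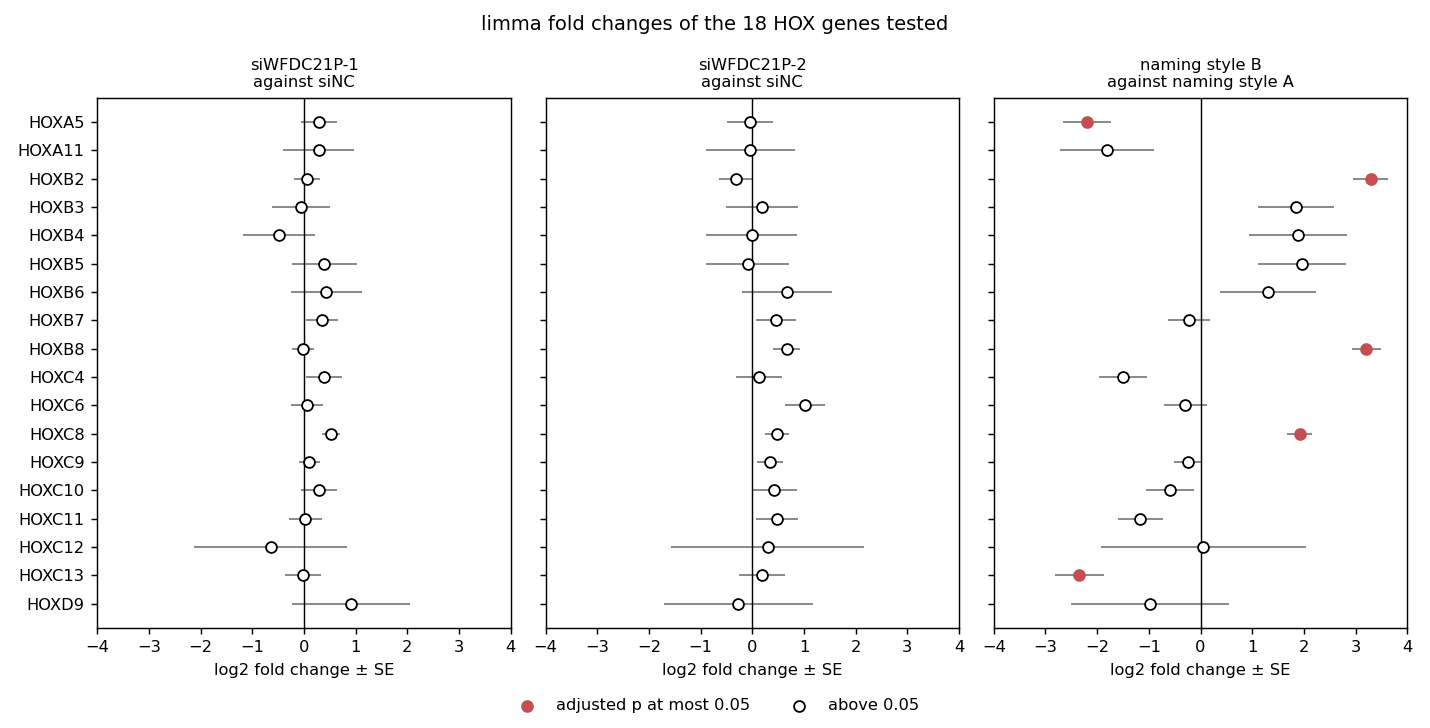
log2 fold changes on the log2(FPKM + 1) scale with standard errors from limma for the 18 HOX genes tested, in the 3 contrasts of the model; filled red points have an adjusted p of at most 0.05. No red point appears for either siRNA, and 5 appear for the naming style.

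Within each set the HOX genes on in the knockdown libraries were mostly those on in the control. For siWFDC21P-1 against siNC, limma called 0 of the 18 HOX genes and 0 of 13014 genes (0.0%), with 708 genes (5.44%) at an unadjusted p under 0.05. The sets are unbalanced here, with 2 set 1 libraries and 1 set 2 library under siWFDC21P-1, against 1 of each under siNC. With expression set as the term instead, 3 genes were called, 0 of them HOX genes, 1790 (13.8%) had an unadjusted p under 0.05, and 4 of the 18 HOX genes turned direction. For siWFDC21P-2, with naming style as the term, limma likewise called 0 HOX genes and 0 genes (0.0%), with 190 (1.46%) at an unadjusted p under 0.05. With expression set as the term instead, 0 genes were called for siWFDC21P-2. Then 682 genes (5.24%) had an unadjusted p under 0.05, 3 of them HOX genes, and 0 of the 18 HOX genes turned direction. Because of the style or set term, the siWFDC21P-2 contrast rests on siNC replicate 3 as its only control. A call of 0 does not show that levels were equal. With naming style as the term, the single HOX gene with an unadjusted p under 0.05 for siWFDC21P-1 was HOXC8 (0.52 ± 0.18, adjusted p = 0.808, limma). For siWFDC21P-2 they were, with the same term, HOXC6 (1.02 ± 0.39) and HOXB8 (0.66 ± 0.26), each with an adjusted p of 1 in limma. In the siWFDC21P-1 contrast 13 of 18 HOX genes had a positive fold change, with a median of 0.19 beside 0.02 over all genes. In the siWFDC21P-2 contrast 12 of 18 had a positive fold change, with a median of 0.25 beside 0.02. The difference between the 2 siRNA effects was called by limma for 0 of the 18 HOX genes, beside 0 of all 13014 genes. An unadjusted p under 0.05 was found for 0 of the 18, beside 162 of the 13014. This does not show that the 2 siRNAs acted alike on HOX genes. The siWFDC21P-1 values lean on 1 control, since 11 of the 18 turned direction without siNC replicate 2, and HOXC8 was at -0.12 without the naming style in the model. With the set 2 libraries left out, 0 HOX genes were called for either siRNA, beside 2 genes (0.0154%) for siWFDC21P-1 and 0 (0.0%) for siWFDC21P-2.

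Within a set, each knockdown library can be set beside the siNC library of that set, although a set holds a single control and these ratios have no replicate check. Intervals on the ratios are 95% and cover counting error only. Of the HOX genes on in either library of a pair, 3 of 19 and 2 of 17 crossed 1 FPKM in set 1, beside 13.1% and 12.6% of all genes on in either library. In set 2, 3 of 17 crossed, beside 12.5%. In set 3, 1 of 15 crossed in each knockdown library, beside 8.90%, 14.5% and 14.0%. The genes that crossed were HOXA9, HOXA13, HOXB13 and HOXC8 in set 1, HOXA6, HOXA11 and HOXC8 in set 2 and HOXB9 in set 3, and all but HOXA13 in siWFDC21P-1 replicate 2 and HOXB9 in siWFDC21P-2 replicates 2 and 3 had a value in the pair whose interval held 1 FPKM. No HOX gene on in set 1 or 2, or in siWFDC21P-2 replicate 1, moved by 1 or more on the log2(FPKM + 1) scale, beside 9.83% and 7.57% of all genes in the set 1 libraries, 5.61% in set 2 and 2.71% in siWFDC21P-2 replicate 1. In set 3, HOXB7 and HOXC6 in siWFDC21P-2 replicate 2, HOXC6 in replicate 3 and HOXB9 in both did so, beside 11.9% and 10.9% of all genes.

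**Figure D5:**
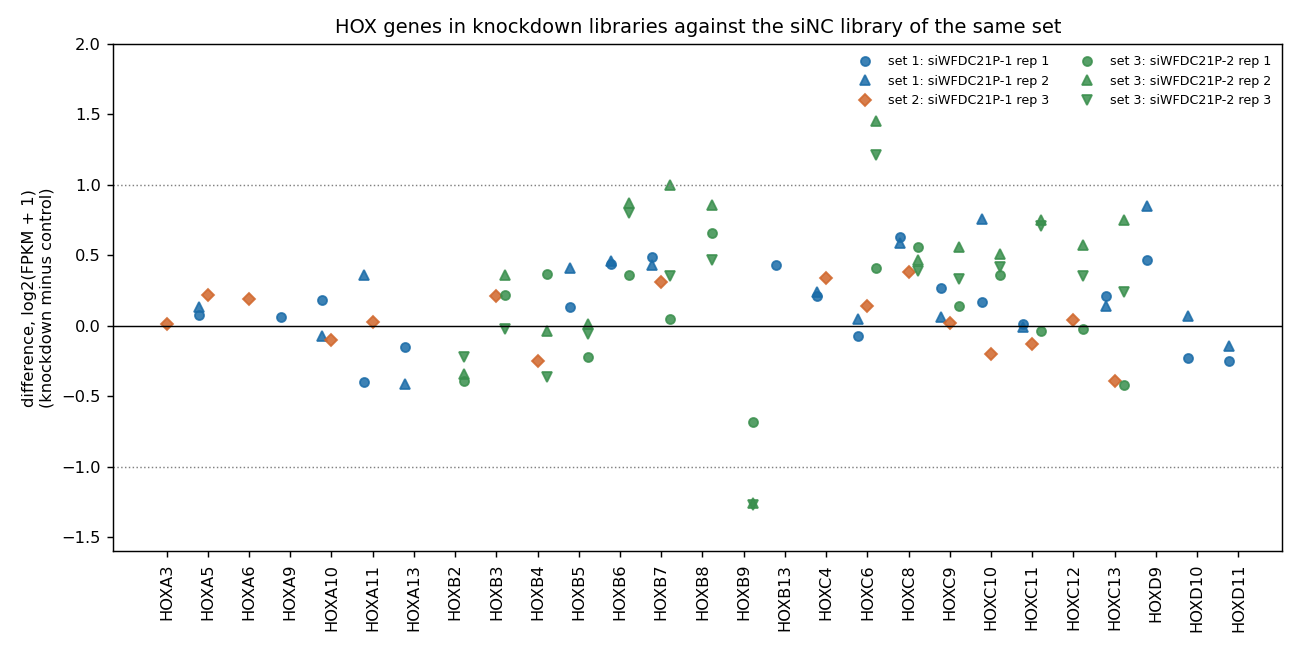
Difference of HOX genes between a knockdown library and the siNC library of its set, on the log2(FPKM + 1) scale (vertical axis; dotted lines at -1 and 1), for genes at 1 FPKM or more in either library. Most points lie between -0.5 and 1, HOXC6 reaches 1.45 and HOXB9 -1.27, both in set 3.

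HOXC8 was higher than the control of its set in all 6 knockdown libraries. Its ratio was 2.2 (1.54 to 3.19) and 2.12 (1.48 to 3.08) in set 1, 1.62 (1.12 to 2.37) in set 2, and 1.55 (1.29 to 1.87), 1.45 (1.20 to 1.75) and 1.36 (1.12 to 1.65) in set 3. HOXB7 and HOXC9 were also higher in all 6. Among all 13014 genes tested 10.8% were higher in all 6, beside these 3 of 18 HOX genes, and 7.92% were lower in all 6, beside 0 of 18. HOXC6 had ratios of 0.942 (0.815 to 1.09) and 1.04 (0.905 to 1.20) in set 1, 1.13 (0.974 to 1.31) in set 2, and 1.45 (1.19 to 1.78), 3.35 (2.80 to 4.02) and 2.78 (2.32 to 3.35) in set 3. HOXB9 had ratios of 0.411 (0.262 to 0.630), 0.0801 (0.0285 to 0.183) and 0.0780 (0.0277 to 0.178) in set 3, on 32, 6 and 6 reads in the siWFDC21P-2 libraries against 73 reads in the siNC library. HOXB9 was under the mean of 1 FPKM and was not tested. In set 3 the libraries siWFDC21P-2 replicates 2 and 3 also differed from siNC replicate 3 over all genes more than replicate 1 did, with median absolute differences of 0.385, 0.370 and 0.152 in replicates 2, 3 and 1. COL3A1 was at 242 and 221 FPKM in replicates 2 and 3 and 23.0 FPKM in replicate 1, against 5.75 FPKM in siNC replicate 3. The part of this in HOXC6 and HOXB9 was not tested.

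HOX proteins bind DNA with TALE cofactors, the PBX, MEIS and PKNOX proteins, and 8 of 9 of these genes were tested. None was called in any contrast. PBX2 was the most even, at 9.99 to 17.4 FPKM in all libraries. PBX3 was at 6.36, 17.4 and 17.1 FPKM under knockdown against 9.27 FPKM under siNC in set 3, and at 2.94 to 4.29 FPKM in sets 1 and 2. PKNOX1, which pairs with PBX proteins, was at 2.02 to 3.89 FPKM. MEIS3 was at 0.0347 FPKM under knockdown against 0.0414 FPKM under siNC in set 2, beside 3.68 to 5.88 FPKM in set 1 and 1.34 to 1.49 FPKM in set 3.

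Of 30 Polycomb genes, all were tested, and 3 were called in the naming style contrast, all lower in style B, where 2.94% of all genes were called lower. CBX2 (-3.05 ± 0.33, adjusted p = 0.00346, limma) and CBX8 (-2.05 ± 0.26, adjusted p = 0.00653) are readers of the repressive histone mark, and EED (-1.43 ± 0.32, adjusted p = 0.0425) is a core subunit of the complex that writes it. CBX2 was at 1.23, 1.89 and 1.75 FPKM in the siWFDC21P-2 libraries and 1.41 FPKM in siNC replicate 3, beside 17.9 to 31.9 FPKM in style A. Of 16 Trithorax and MLL genes, which keep HOX genes active, 1 was called, DPY30, which was lower in style B (-1.16 ± 0.26, adjusted p = 0.043, limma). That share is near the 6.63% called over all genes. None of the 11 tested genes of the retinoic acid pathway, the main embryonic inducer of 3′ HOX genes, was called. CRABP2, which carries retinoic acid to the nucleus, was at 548 FPKM under knockdown against 941 FPKM under siNC in set 2, at 8.73 to 14.3 FPKM in set 1 and at 2.29 to 15.5 FPKM in set 3. The receptor gene RARB was at 4.15 FPKM under knockdown against 4.20 FPKM under siNC in set 2 and at most 0.378 FPKM elsewhere. DHRS3 was at 6.95 to 17.3 FPKM in style A and 28.2 to 38.2 FPKM in style B, RARG at 4.6 to 17.6 FPKM and RXRB at 5.85 to 14.6 FPKM in all. None of the genes in these 4 lists was called for either siRNA.

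Genes that flank the clusters gave a view of the edges. Of 18 such genes 12 were tested, and SNX10, in the region beyond HOXA, was the 1 called, lower in style B (-2.39 ± 0.47, adjusted p = 0.0298, limma), a share near the 6.63% of all genes. HNRNPA1 and CBX5 beyond HOXC were on in every library at 187 to 319 FPKM and 15.5 to 33.4 FPKM, and MTX2 beyond HOXD was at 11.2 to 26.2 FPKM, also in sets 2 and 3, where no HOXD gene reached 1 FPKM. EVX1 and EVX2, the homeobox genes at the 5′ ends of HOXA and HOXD, were at 0.0325 FPKM or less. Of 38 other homeobox, forkhead and T-box genes that mark body regions, 18 were tested and 4 were called, all higher in style B, where 3.7% of all genes were called higher. They were TBX18 (3.45 ± 0.36, adjusted p = 0.00324, limma), FOXD1 (3.66 ± 0.48, adjusted p = 0.00741), TBX15 (2.12 ± 0.42, adjusted p = 0.0311) and LHX2 (1.34 ± 0.28, adjusted p = 0.0351). TBX18 was at 10.7, 19.2 and 16.8 FPKM in the siWFDC21P-2 libraries against 9.90 FPKM in siNC replicate 3, and at most 0.00408 FPKM in style A. EN1, a midbrain and limb gene, was at 0 in all of set 1, at 8.99 FPKM under knockdown against 13.3 FPKM under siNC in set 2 and at 8.37, 20.3 and 16.4 FPKM under knockdown against 5.82 FPKM under siNC in set 3.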

How the data were processed

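The 9 tables hold FPKM for each Ensembl gene, as deposited by the authors. Per the submitters' processing notes, the tools were HISAT2 2.1.0, HTSeq 0.6.0 and Bowtie2 2.2.3, on hg38, with no roles given. Strand is not given in the sources used here. Each library took 1 µg of RNA from cells given 5 µl of a 10 µM siRNA, per the labels' protocols. Whether replicates are separate cultures is not stated, so p-values measure the spread between libraries.

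Gene IDs were named from GENCODE v29. FPKM multiplied by exon length and library depth gave whole reads (within 0.02 reads) for 92.7% of the 26636 genes in both tables. Intervals (95%, exact Poisson or binomial) and the limit of 3 reads for a count of 0 cover counting error only. Genes in both tables that averaged 1 FPKM or more (13014, of which 18 HOX genes) were tested as log2(FPKM + 1) with limma 3.58.1 in R 4.3.3, using a trended prior, terms for group and naming style, and Benjamini-Hochberg adjustment over all genes at 0.05. This scale understates changes of low genes, and the script was tested on simulated data. Expression sets came from average linkage on 1 minus Pearson r without HOX genes, split at 0.15. Python 3.11.15 did the rest.

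The members, lists, thresholds and tests were chosen with earlier results of these data known. All HOX genes on in a library were named, with 1 exception, and from each other list the called members, or else up to 4 with the highest mean. HNRNPA1, EVX1, EVX2, MTX2, CBX5, MEIS3, RARB, EN1, COL3A1, COL1A1, FN1, THY1, MMP14, KRT8, CD14, KDR, MIR10B, MIR196A2, HOTAIRM1, HOXA-AS2, HOXB-AS3, HOXC-AS1 and HOXD-AS2 were named after their values were seen. Alternatives changed the pseudocount, filter, scaling, model terms, on threshold and libraries used. The excepted HOX gene and a cofactor gene are counted in the totals and not reported here.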

Additional observations from a re-analysis of the deposited data

How the results depend on the processing

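For both siRNAs 0 HOX genes were called in every setting run. Over all genes, siWFDC21P-1 had 3 genes called when expression set replaced naming style as a term and 2 without the set 2 libraries, a choice made after seeing the data. siWFDC21P-2 had 14 with no filter, 1 with a mean of at least 0.1 FPKM, and 0 to 3 over left-out libraries. For the naming style, 488 genes and 3 HOX genes were called by limma-voom on recovered reads, 3 HOX genes with no filter, 2984 genes and 12 HOX genes without set 2, and 343 to 1071 genes with 3 to 5 HOX genes over left-out libraries. Without siNC replicate 3 the naming style and siWFDC21P-2 contrasts could not be fitted. HOXC8 for siWFDC21P-1 was at -0.12 without the naming style. At 0.1 FPKM the number of HOX genes on was 24 and 26 under knockdown against 26 under siNC in set 1, 25 against 27 in set 2, and 20, 18 and 17 against 19 in set 3. At 10 reads it was 24 and 25 under knockdown against 25 under siNC in set 1, 24 against 23 in set 2, and 16, 16 and 16 against 18 in set 3. At 0.5 FPKM, 2 FPKM or 1 TPM it stayed within 1.5 times of that at 1 FPKM in each library. The cause was not tested. Replicate numbers did not pair the libraries: deviations of same-numbered libraries correlated at -0.683 to 0.667. With the replicate number as a block, 55 genes and 0 HOX genes were called for the naming style, and HOXB8 was at 3.33 (adjusted p = 0.0506, limma), HOXB2 at 2.94, HOXC8 at 2.06, HOXA5 at -1.82 and HOXC13 at -2.13. Levels of a few reads, such as those of MIR196A2 and of off HOX genes, are limited by depth.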
